A study of Gallus gallus with 2 samples.

Results

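Transcripts of globins and of other proteins of the red blood cell were measured in RNA of intestinal intraepithelial lymphocytes (IEL), lymphocytes lodged among the cells of the gut epithelium, from broiler chickens. The set holds 8 genes: the globin genes HBBA, HBAA, HBAD and HBE1, the carbonic anhydrase gene CA2, FAXDC2, the transcription factor gene GATA1 and the membrane skeleton gene EPB41. A probe belonged to the set if it was no control spot on either array and the array's gene name, description or accession pointed to 1 of these genes. By this rule all 8 of 8 genes were found, of 8620 genes that could be named on the array, through 12 of its 42034 probes. No measured value entered this rule for probes, although the genes were chosen with earlier results of these data known.

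Broilers aged 14 days that were fed direct fed microbials (DFM, live microbes given with the feed) were compared with untreated broilers of the same age. On 2 two-colour arrays of 1 slide, total RNA of a DFM group competed with total RNA of a control group. DFM was labelled with the red dye Cy5 on replicate 1 and with the green dye Cy3 on replicate 2, and control with the opposite dye each time. The second array is labelled as a biological replicate and as a dye exchange of the first, and the number of birds behind an RNA is not given in the labels. The p-values thus reflect nothing but differences between 2 arrays, which can be technical. Their measure of spread is drawn largely from all tested probes together, not from a probe's own 2 values.

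Adult chicken red cells carry hemoglobins built from the beta chain HBBA and the alpha chains HBAA and HBAD. Embryonic and hatching red cells use other chains of the same gene clusters. Chicken red cells keep their nucleus, so transcripts of red cell genes are found in blood as well as in bone marrow. In bulk RNA, fewer cells of a type and less RNA per cell cannot be told apart.

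On the 2 arrays 16889 to 21122 probes per channel were well above background by the scanner software's detection flag. A probe was tested if at least 1 group had it well above background on both arrays, which held for 18242 probes. All ratios are log2 of DFM over control after loess normalization, which sets the average probe of like intensity on each array to 0. In all that follows, "average probe" means this average of like intensity, and "higher" and "lower" are relative to it. Median centring, used as an alternative, sets the median of all tested probes to 0 instead. The 10 spike-in RNAs added before labelling had median log2 ratios of -1.84 and -2.65 on the arrays. Setting the zero to them, by 1 shift for both arrays, would move the median of all probes to 2.25. It would also make each of the 10 tested probes of the set higher with DFM. This zero takes the designed log2 ratio of the spike-in median to be 0, and the designed ratios were not used here.

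Of 12 named T lymphocyte markers 8, among them CD3D, CD3E, CD8A and LCK, were well above background in all 4 channels, while the probe for PTPRC was so in none. Transcripts of other cell types were detected too. Of 15 enterocyte markers 13 were well above background in all 4 channels, with SI and FABP2 above it in none. Of 10 named pancreatic acinar markers 8 were tested and all 8 were higher with DFM, with a median log2 ratio of 2.56, against 12.1% higher among all tested probes. CEL, CPB1 and CTRL among them entered the test through the DFM channels alone, which favours ratios above 0. PRSS2 and PRSS3 were well above background in no channel.

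Of the 12 probes of the set 10 were tested, and limma called 1 higher and 4 lower with DFM at an adjusted p under 0.05, while 5 were not called. Among all tested probes 22.6% were called, 12.1% higher and 10.5% lower, which is 2202 higher and 1918 lower, against 393 higher and 155 lower with median centring. HBBA, HBAD, CA2 and FAXDC2 were the probes called lower and the probe annotated HBE1 was the one called higher, all relative to the average probe, and at the spike-in zero all 5 would be higher. HBAA had ratios of opposite sign on the arrays, and GATA1 and EPB41 were not called.

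**Figure D1:**
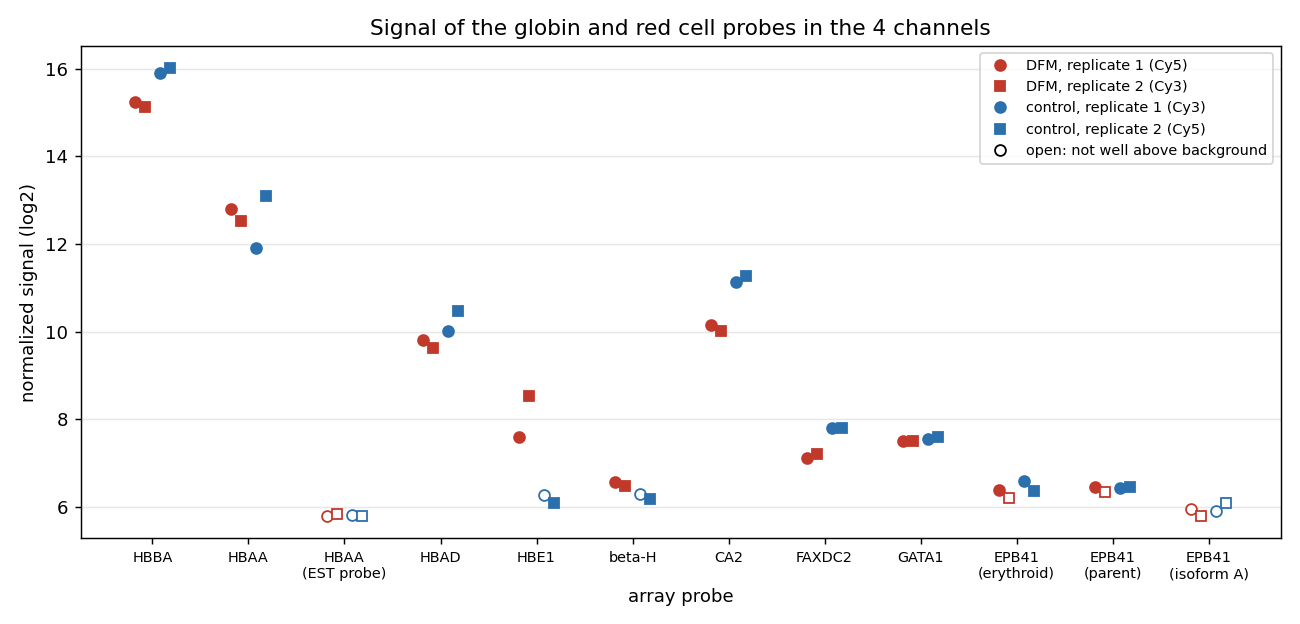
Normalized log2 signal of each of the 12 probes (horizontal axis) in the 4 channels, with DFM in red and control in blue, the array of replicate 1 as circles and that of replicate 2 as squares, and open symbols where the spot was not well above background. Relative to the average probe, both DFM points lie below both control points for HBBA, HBAD, CA2 and FAXDC2. They lie above them for the probe annotated HBE1, and which beta-like chain that probe reads was not settled. The same separation holds for the uncalled probes GATA1 (DFM below) and beta-H (DFM above), whereas the HBAA points overlap. The share of all tested probes separated in this way was not counted. Heights of different probes cannot be set against each other.

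HBBA, the beta chain of the main adult hemoglobin, is written HBD in the array's annotation and was identified through its accession. Its probe lies at chr1:188133280-188133339 of galGal2. The raw signal was 68051 in DFM and 41611 in control on the array of replicate 1, and 21814 in DFM and 91296 in control on that of replicate 2. These signals were 532 to 1547 times the local background, and no channel was saturated, although all 4 readings came from the low-gain scan by the software's flag. The HBBA transcript was thus detected in both groups and in every channel.

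After normalization the HBBA level was 15.24 and 15.14 (log2) in DFM and 15.91 and 16.01 in control. Both DFM values lay below both control values. The share of all tested probes separated in this way was not counted, here and for the probes and sums below. Such separation is therefore only described, and it adds nothing to the test. The log2 ratios of the arrays were -0.68 and -0.87. Their mean was -0.77 (SE 0.13, n = 2 arrays, 95% interval -1.07 to -0.48, limma adjusted p = 0.00443), a 1.71-fold lower signal with DFM relative to the average probe. Only 100 and 112 probes on the arrays lay within 1 log2 unit of the mean intensity of HBBA. Under median centring the HBBA ratios were 0.12 and -1.45 (adjusted p = 0.463), by the scanner's own ratio the mean was -0.80 (adjusted p = 0.0700), and over all alternatives the adjusted p ranged from 1.91e-06, with the sign turned at the spike-in zero, to 0.463.

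HBAA, the alpha chain of the main adult hemoglobin, had 2 probes. That for the messenger RNA J00851 lies at chr14:13965132-13965191 of galGal2 and was well above background in all 4 channels, with raw signals of 11117 and 3832 in DFM and 2781 and 11987 in control on the arrays of replicates 1 and 2. The normalized level was 12.79 and 12.53 in DFM and 11.91 and 13.09 in control. The control values thus enclosed both DFM values.

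The HBAA ratio was 0.89 on the array of replicate 1 and -0.56 on that of replicate 2, with a mean of 0.16 (SE 0.28, 95% interval -0.47 to 0.80, limma adjusted p = 0.707). The sign went with the dye: Cy5 exceeded Cy3 by 0.89 on one array and by 0.56 on the other, and the part of the dye in the result was not tested. A gap between arrays at least as large was seen in 17 tested probes, or 0.0932%, whereas opposite signs alone occurred in 24.0%. The second HBAA probe, designed on the expressed sequence tag BU409339 and not placed on the genome, had signals of 56.5 and 61.2 in DFM and 61.5 and 55.5 in control, below the detection flag in each channel, and was not tested.

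HBAD, the alpha-D chain of the minor adult hemoglobin, was read by 1 probe without a genome position. Its raw signals were 1267 and 543 in DFM and 799 and 1894 in control. The normalized level was 9.80 and 9.62 in DFM and 10.02 and 10.48 in control, so both DFM values were the lower ones. The log2 ratios were -0.22 and -0.86, with a mean of -0.54 (SE 0.17, limma adjusted p = 0.0479), a 1.45-fold lower signal relative to the average probe.

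The ratios of HBAD lay further apart than those of HBBA, and the HBAD call was lost under 6 of the alternatives, with adjusted p from 0.0604 to 0.651. Over all alternatives the adjusted p ranged from 4.37e-06, with the sign turned at the spike-in zero, to 0.651. The differences between the ratios of the globin genes were not tested.

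By name, 2 probes were matched to HBE1. The array's annotation gives the symbol to a probe designed on the expressed sequence tag BU237160, at chr1:188126936-188126995 of galGal2. The other is described as beta-H globin, a name that RefSeq lists for chicken HBE1, and lies at chr1:188128736-188128795. The first lies 1740 bases from the beta-H probe on the side away from HBBA, whose probe lies 4484 bases from the beta-H probe. In RefSeq's gene order the cluster runs HBE, HBBA, HBE1 and HBBR, where HBE and HBBR are the embryonic epsilon and rho chains. RefSeq uses another build, so its distances were not set against those of the probes, and which beta-like chain the first probe reads was not settled.

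The probe annotated HBE1 had raw signals of 227 and 291 in DFM, against 67.2 and 83.8 in control, where the local background was 41.5 and 56.0. Both DFM channels were well above background, and the control was so on 1 of 2 arrays, that of replicate 2. The normalized level was 7.60 and 8.53 in DFM and 6.27 and 6.09 in control. Both DFM values lay above both control values.

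The log2 ratios of this HBE1 probe were 1.33 and 2.44, with a mean of 1.89 (SE 0.23, n = 2 arrays, 95% interval 1.37 to 2.40, limma adjusted p = 0.000934), a measured 3.70-fold higher signal. The control signals were 1.6 and 1.5 times the local background, near it on both arrays, so this fold rests on a dim control. Of the tested probes 158, or 0.866%, had a ratio at least as high. The size depended on how the dim control was treated: the mean was 3.26 with a background correction offset of 0 and 4.12 by the scanner's own ratio. The call held under every alternative in which the probe was tested, with adjusted p from 1.24e-07 to 0.00677, and a filter that asks for all 4 channels above background left it out.

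The beta-H probe had signals of 97.5 and 83.3 in DFM and 75.2 and 71.5 in control, again with control well above background on 1 of 2 arrays. Its log2 ratios were 0.27 and 0.31, with a mean of 0.29 (SE 0.12, limma adjusted p = 0.130), and it was not called. With an offset of 0 the mean was 0.75 (adjusted p = 0.0260), and over all alternatives the adjusted p ranged from 1.23e-07 to 0.931. The ratios of both probes were thus above 0 on both arrays, and that of the first passed the test. Both probes entered the test through the DFM channels alone, which favours ratios above 0, so their shared sign is no further evidence.

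**Figure D2:**
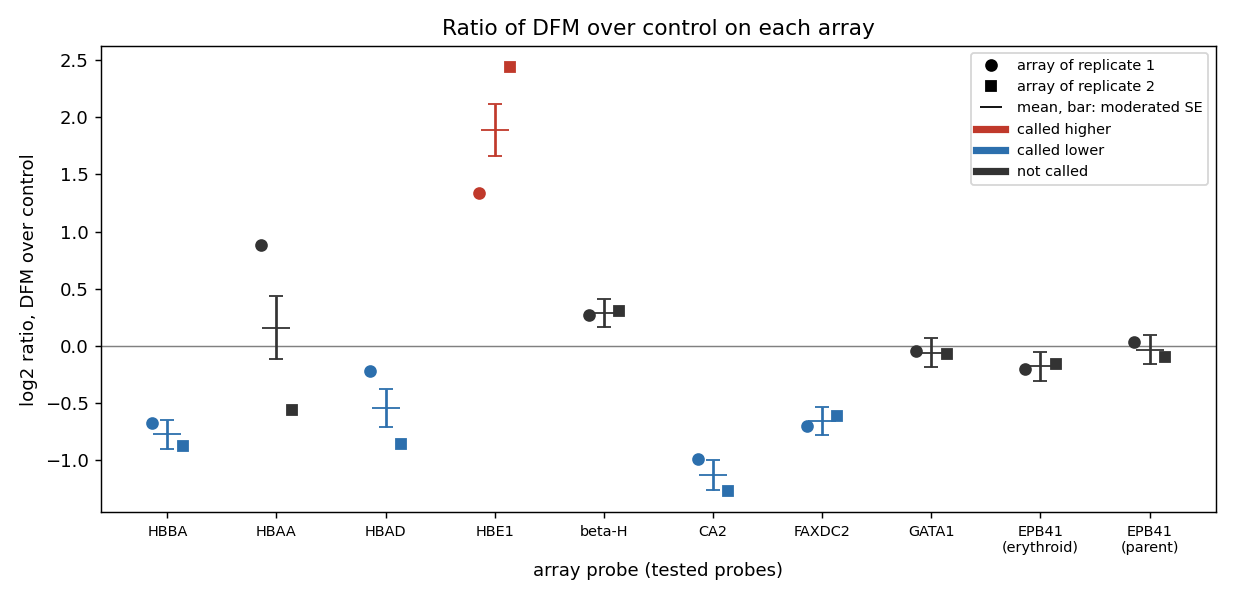
Log2 ratio of DFM over control (vertical axis) of the 10 tested probes on the array of replicate 1 (circles) and that of replicate 2 (squares), with the mean as a line and limma's moderated SE as the bar. Relative to the average probe, HBBA, HBAD, CA2 and FAXDC2 lie below 0 on both arrays, while HBAA lies at 0.89 and -0.56. The probe annotated HBE1, whose beta-like chain was not settled, lies above 0 on both arrays. Of the probes not called, GATA1 and the erythroid EPB41 also lie below 0 on both arrays and beta-H above it. Beta-H and the probe annotated HBE1 entered the test through the DFM channels alone, which favours ratios above 0. The EPB41 probes entered it through the control channels alone, which favours ratios below 0. Set to the spike-in RNAs, all 10 means would lie above 0.

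CA2 is the carbonic anhydrase of the red cell, which speeds the conversion of carbon dioxide to bicarbonate, and in mammals it is also made by cells of the gut epithelium and of the pancreatic duct. Its probe at chr2:122225298-122225357 of galGal2 had raw signals of 1670 and 692 in DFM and 1694 and 3317 in control. The normalized level was 10.15 and 10.01 in DFM and 11.14 and 11.28 in control. No value of one group reached the range of the other.

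The CA2 ratios were -0.99 and -1.27, with a mean of -1.13 (SE 0.13, n = 2 arrays, 95% interval -1.43 to -0.83, limma adjusted p = 0.000849), a 2.19-fold lower signal with DFM relative to the average probe. CA2 was called under each alternative tested, with adjusted p from 2.16e-05 to 0.0362, and with its sign turned only at the spike-in zero.

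FAXDC2 encodes a protein with a fatty acid hydroxylase domain. Its probe, whose target spans chr13:11010706-11011620 of galGal2, had raw signals of 166 and 118 in DFM and 192 and 276 in control. The normalized level was 7.11 and 7.20 in DFM and 7.81 in both controls, so the groups did not overlap. The log2 ratios were -0.70 and -0.61, with a mean of -0.65 (SE 0.13, limma adjusted p = 0.00794), a 1.57-fold lower signal relative to the average probe.

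The scanner software's ratio of FAXDC2 had a mean of -1.11 (adjusted p = 0.0392), which is over 1.5 times the loess value. With median centring FAXDC2 was not called (adjusted p = 0.451), and over all alternatives its adjusted p ranged from 8.43e-07, with the sign turned at the spike-in zero, to 0.451.

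GATA1 is the transcription factor that drives the red cell programme, and the array describes it under its older chicken name eryf1. Its probe, without a genome position, was well above background in all 4 channels, with raw signals of 228 and 142 in DFM and 159 and 235 in control. The normalized level was 7.51 in both DFM channels and 7.55 and 7.59 in control, so here too the groups did not overlap. The ratios were -0.04 and -0.07, with a mean of -0.06 (SE 0.12, 95% interval -0.34 to 0.23, limma adjusted p = 0.767). GATA1 was thus detected in both groups and not called, although its levels were separated as those of the called probes were.

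EPB41, protein 4.1, ties the spectrin network of the red cell to its membrane and is also made in other cell types. The probe described as the erythroid form, spanning chr23:2235252-2235770 of galGal2, had signals of 88.7 and 72.0 in DFM and 90.5 and 81.0 in control and was well above background in DFM on 1 of 2 arrays. Its ratios were -0.20 and -0.16, with a mean of -0.18 (limma adjusted p = 0.330). A probe on an unplaced contig had ratios of 0.03 and -0.10, with a mean of -0.03 (limma adjusted p = 0.868). Both of these probes entered the test through the control channels alone, which favours ratios below 0. A probe at chr23:2246335-2246394 passed the detection flag in no channel and was not tested. EPB41 was thus measured close to background, and no EPB41 probe was called.

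**Figure D3:**
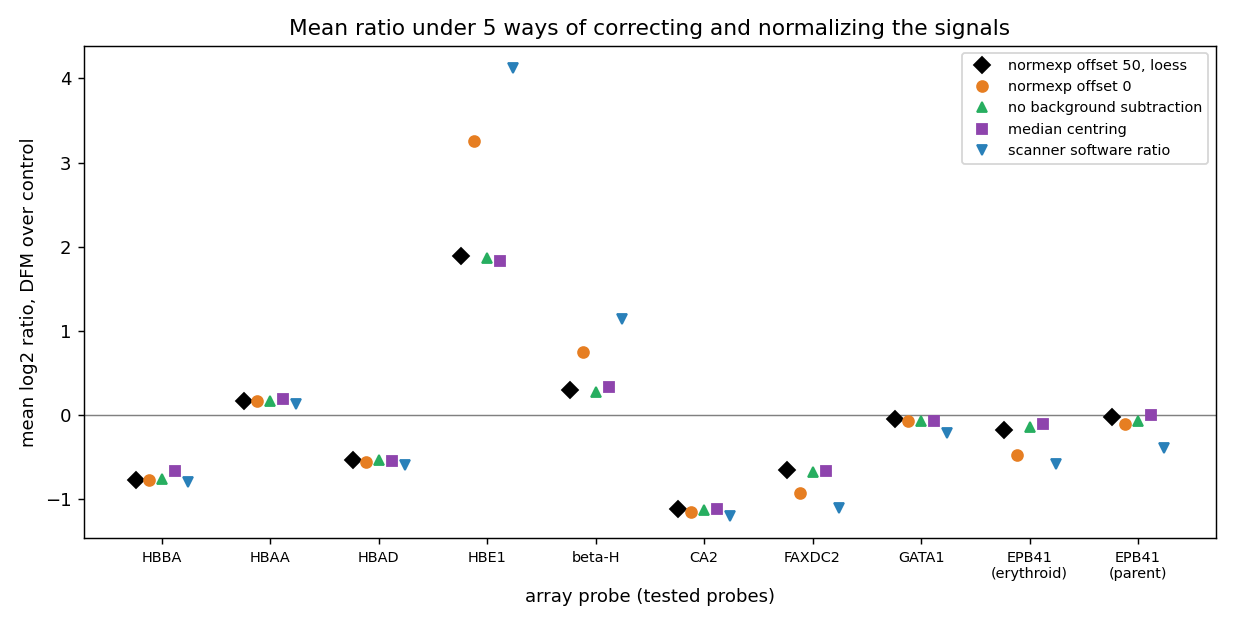
Mean log2 ratio of DFM over control (vertical axis) of the 10 tested probes under 5 ways of correcting and normalizing the signals, shown as different symbols. The means of HBBA, HBAA, HBAD, CA2 and GATA1 lie close together. That of the dim probe annotated HBE1 runs from 1.83 to 4.12 and that of FAXDC2 from -1.11 to -0.65. The mean of beta-H runs from 0.27 to 1.14 and that of the erythroid EPB41 from -0.59 to -0.11. Close means do not show that the ratios of each array were stable. Under median centring these were 0.12 and -1.45 for HBBA and 1.41 and -1.03 for HBAA. The spike-in zero, at which all 10 means are above 0, is not drawn.

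Genes that act beside the set in the red cell were counted in lists, with the brightest tested probe standing for each gene. The members of each list were matched by symbol, and genes without a named probe were not analysed here. Over all tested probes 12.1% were higher and 10.5% lower, with a median log2 ratio of 0.000872. The 43 tested genes of all lists include those of a thrombocyte list, which is described at the end. Of the 43 genes 12 were called, against 3 with median centring and 5 by the scanner's own ratio. The number of calls below thus depends on the normalization. At the spike-in zero all 43 were called, so every direction below is relative to the average probe.

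Of 13 symbols on the list of other globins 3 had a named probe. Some of the rest are, in RefSeq, other names of globins of the set: HBBH of HBE1, HBG2 of HBBA, and HBA2 and HBM of HBAD. HBG1 is another name of HBBR, which is also listed. The 13 symbols thus stand for fewer genes, and their count does not measure how well the array covers the globins. Neuroglobin, NGB, the globin of nerve cells, was tested, with log2 ratios of 0.05 and 0.25, and was not called. The embryonic alpha-type chain HBZ (2 probes) and cytoglobin, CYGB, passed the detection flag in no channel.

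Of 27 genes of heme synthesis and iron handling 17 were named and 13 tested, of which 7 were lower, none was higher and 6 were not called, with a median of -0.45. CPOX, coproporphyrinogen oxidase of the heme pathway, had ratios of -1.36 and -1.08 with a mean of -1.22 (SE 0.13, limma adjusted p = 0.000585), a 2.33-fold lower signal. The cytosolic aconitase and iron regulatory gene ACO1 had a mean of -0.74, the mitochondrial transporter gene ABCB10 one of -0.69 and the heme oxygenase gene HMOX1, which breaks heme down, one of -0.58. The lower genes thus include enzymes of heme synthesis and of heme breakdown.

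IREB2, an iron regulatory protein, and GLRX5, a mitochondrial glutaredoxin of iron-sulfur cluster assembly, were also called lower. ALAS1 and FECH, the first and the last enzyme of the heme pathway, were looked up after their values were seen: ALAS1 had a mean of -0.43 (limma adjusted p = 0.0505) and FECH one of 0.33 (limma adjusted p = 0.110), and neither was called. The transferrin receptor gene TFRC, which brings iron into immature red cells, was looked up in the same way and passed the detection flag in no channel.

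Of 24 genes of the red cell membrane and its skeleton 14 were named and 11 tested, with 2 lower, none higher and 9 not called (median -0.30). MPP1, a palmitoylated scaffold protein that binds protein 4.1, had a mean of -0.70 (limma adjusted p = 0.00757), and the water channel gene AQP1 one of -0.62 (limma adjusted p = 0.0180). AQP1 is also made by endothelial cells.

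Of 17 erythroid transcription factor genes 13 were named and 8 tested, with 1 higher, none lower and 7 not called (median 0.0747). The higher gene was BCL11A, a repressor of fetal globin genes in humans that is also made in lymphocytes, with ratios of 1.64 and 0.68 and a mean of 1.16 (SE 0.21, limma adjusted p = 0.00582). KLF1, the erythroid Krüppel-like factor that activates the adult beta-globin gene, was looked up after its values were seen. It was well above background in all 4 channels, had ratios of -0.61 and -0.21 with a mean of -0.41, and was not called (limma adjusted p = 0.0722). The 5 named genes that were not tested, TAL1, GATA2, GFI1B, MYB and ZFPM1, passed the detection flag in no channel.

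Of 16 red cell enzyme and maturation genes 7 were named and tested, with 1 lower, none higher and 6 not called (median -0.19). The lower gene was BNIP3L, which is needed for the removal of mitochondria from maturing red cells in mammals, with ratios of -0.65 and -0.90 and a mean of -0.77 (limma adjusted p = 0.00495).

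**Figure D4:**
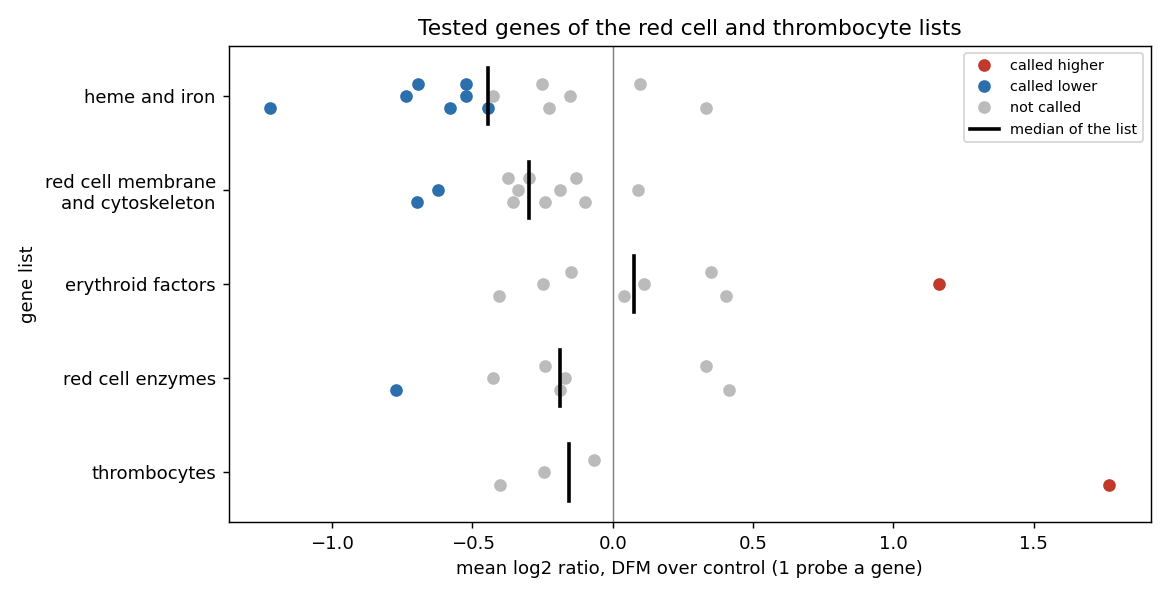
Mean log2 ratio of DFM over control (horizontal axis, relative to the average probe) of each tested gene of 5 lists (vertical axis), with blue for lower, red for higher and grey for genes not called, and a black bar at the median of the list. The heme and iron genes have the lowest median, at -0.45, with 7 of 13 called lower. At the spike-in zero all of these genes would lie above 0.

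The named genes whose pair of ratios lay nearest to that of HBBA, by distance over the 2 arrays on the log2 scale, were COL4A1, a collagen of basement membranes (distance 0.0276), SUPT20H, a subunit of the SAGA transcription complex (0.0289), NSFL1C, a cofactor of the p97 ATPase (0.0302), BNIP3L (0.0424) and KDM4C, a histone demethylase (0.0499). With 2 arrays as the measure, likeness of this kind describes size and sign only. BNIP3L was the only gene of these 5 that was also on a red cell list.

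Blood in the preparations was read from the summed normalized signal of the red cell markers, given here beside that of other cell types. Of 11 red cell markers 8 were named and tested, and 1 was higher, 2 were lower and 5 were not called (median -0.23). HBE1, HBBA, HBAA, HBAD and GATA1 among them belong to the set. The calls were those of HBBA, HBAD and the probe annotated HBE1 given above, so they are no further evidence. Beside this count and those below, 12.1% of all tested probes were higher and 10.5% lower. The summed linear signal of the 8 red cell markers was 50713 and 47609 in DFM and 72399 and 81323 in control, and both DFM sums lay below both control sums. HBBA makes up most of these sums, so they follow that probe. Its mean ratio was 1.47 at the spike-in zero, and its ratios were 0.12 and -1.45 under median centring. The directions of all sums, here and below, thus hold relative to the average probe only.

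The sum of 10 T lymphocyte markers was 37806 and 32264 in DFM and 50533 and 49333 in control, also lower in both DFM channels, with 2 genes higher, 1 lower and 7 not called (median -0.08). CD3D makes up most of this sum, as HBBA does of the red cell sum. The sum of 13 enterocyte markers overlapped between the groups, at 684073 and 552423 in DFM and 589640 and 719911 in control. Of these genes 1 was higher, 5 were lower and 7 were not called, with a median of -0.24, near that of the red cell markers. ANPEP, APOA4, CDX2 and FABP1 make up most of this sum. A dimmer ANPEP probe outside the sum had a mean of -1.70 and was called lower, while the brighter one had 0.37 and was not called. The sum of 8 pancreatic acinar markers was 21544 and 21034 in DFM against 1094 and 1169 in control, and that of 2 macrophage markers was 932 and 803 against 529 and 563. LYZ makes up most of the macrophage sum and was called higher, with a mean log2 ratio of 0.75. The other macrophage marker, MARCO, lay near background, had a mean of 0.01 and was not called. The part that these other cell types have in the ratios of the globin and red cell genes was not tested.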

How the data were processed

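The deposited scanner files give, per the file headers, a mean intensity for every spot and a median intensity for its surroundings, neither background-corrected, and processed intensities. They also give, per the file headers, a log10 ratio (Cy5 over Cy3), its p-value by an error model of the single array, and flags for detection, saturation and outliers. The authors' deposited values for the series are log2 ratios: over 42034 probes they matched the log2 ratio of processed signals, DFM over control, with slope 1 on both arrays and medians of -0.274 and 0.204, which settles scale, centring and direction. Agilent Feature Extraction has version 10.7.3.1 in the submitters' processing notes and 9.5.3.1 in the file headers.

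Of the 43451 spots on an array 1417 were controls. Mean signals were background-corrected with normexp (offset 50) and normalized by loess within each array, with control spots at no weight (R 4.3.3, limma 3.58.1, the data.table package at 1.17.8, jsonlite 2.0.0). Spots with an outlier flag (0 and 5) were left out, and none was saturated. The ratio of replicate 2 was turned, and each probe was tested against 0 with lmFit and eBayes (1 residual and 7.52 prior degrees of freedom), two-sided, with Benjamini-Hochberg adjustment over all tested probes at 0.05. SE is limma's moderated standard error, which by these degrees of freedom draws more on the spread of all tested probes than on a probe's own 2 ratios. Levels are log2 values per channel after loess and Aquantile. The number of arrays limits the precision.

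A RefSeq table (GRCg7b), used only for names and gene order, named 5269 probes through their accession, 2353 through a gene identifier, 2057 through a symbol and 413 through a synonym. Coordinates are those of the array's grid, built on galGal2 per the file headers, and exon or UTR positions of the probes were not analysed here. The members and lists were chosen with earlier results of these data known. The text names every probe of the set, any globin above background, up to 4 called genes per list by size, and the 5 genes nearest to HBBA, with exceptions stated. The fit was tested on simulated data. Alternatives were other background corrections, normalizations, zero points and filters.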

Additional observations from a re-analysis of the deposited data

How the results depend on the processing

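Every alternative listed was chosen with earlier results of these data known. Over all probes, 2202 were higher and 1918 lower, against 393 and 155 with median centring, 1179 and 951 by the scanner's own ratio and likewise by the authors' series table, and 18230 and 3 at the spike-in zero. In the set, 1 probe was higher and 4 lower. The count of higher probes was 2 with an offset of 0 and 10 at the spike-in zero. It was 0 where all 4 channels had to be above background, which tested 6 probes and left the probe annotated HBE1 out. The count of lower probes was 1 with median centring, 2 by the scanner's own ratio and the authors' series table, and 0 at the spike-in zero. Of 43 list genes 12 were called, against 3 with median centring, 5 by the scanner's own ratio and the authors' series table, and 43 at the spike-in zero. At that zero the means of 7 tested probes turned their sign: CA2 1.12, EPB41 2.07 and 2.21, FAXDC2 1.59, GATA1 2.19, HBAD 1.71 and HBBA 1.47. The cause of these shifts is the constant that this zero adds to each ratio, and for the other settings the cause was not tested. Without the array of replicate 1 or that of replicate 2 a single ratio is left, with no test. It ran from -0.87 to -0.68 for HBBA, from -0.56 to 0.89 for HBAA and from -0.86 to -0.22 for HBAD. For the probe annotated HBE1 it ran from 1.33 to 2.44, and for CA2 from -1.27 to -0.99. The ratio within each array already pairs DFM with control. Beyond that, no paired analysis was possible because each array gives a single ratio per probe. Signals of EPB41, of beta-H and of the control for the probe annotated HBE1 lay near background, which limits their ratios.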

Other observations

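Thrombocytes are the nucleated clotting cells of bird blood. Of 18 thrombocyte genes 9 had a named probe and 4 were tested, with 1 higher, none lower and 3 not called (median -0.16, against 0.000872 over all tested probes). The higher gene was SELP, P-selectin, an adhesion receptor that in mammals is made by platelets and by activated endothelial cells. Its log2 ratios were 1.75 and 1.78, with a mean of 1.77 (SE 0.12, n = 2 arrays, limma adjusted p = 3.68e-05), a 3.40-fold higher signal relative to the average probe. GP9, F13A1, VWF and MEIS1, looked up after their values were seen, passed the detection flag in no channel.

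Different probes of 1 gene disagreed in the lists, as was seen after the values were known. The brightest probe of FTH1, the ferritin heavy chain, had a mean of -0.15 and was not called, and a dim FTH1 probe had one of 0.75 and was called higher. This dim probe entered the test through the DFM channels alone, which favours ratios above 0. The brightest probe of ABCB10 had a mean of -0.69 and was called lower, while the other had one of -0.10 and was not called. The brightest probe of SPTBN1, a spectrin, had a mean of -0.24 and was not called, while the other had one of -0.93 and was called lower.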
